A study of Homo sapiens with 47 samples.

Results

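GREB1, TFF1, CXCL12, IGFBP4, ALPP, ALPI, CCND1, XBP1, PDZK1 and NRIP1 are estrogen-responsive genes that are widely used as readouts of estrogen receptor α (ER). They were chosen by name, and all 10 were found among 20090 protein-coding genes of GENCODE release 44 on hg19. The data were 47 lists of ChIP-seq peaks from Ishikawa cells, an endometrial adenocarcinoma line, held in hormone-depleted media for at least 5 days, with no estrogen added in any library. The cells were transiently transfected with gRNA plasmids and with dCas9-VP16(10x), a catalytically dead Cas9 fused to 10 copies of the VP16 activation domain, or else dCas9-p300(core), in which the acetyltransferase core of p300 takes the place of VP16, and were selected for both plasmids.

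H3K27ac and RNAPII were each measured in 20 libraries, 2 for each construct with each of 5 gRNA pools (Pool 1, Pool 2 and Pool 3, which each target 1 ER binding site near each of the genes MMP17, CISH, FHL2 and HES2; Adjacent, for regions near such sites; and IL1RN, the control promoter). HA, the epitope tag on dCas9, was measured in 5 dCas9-VP16(10x) libraries (2 with all ER binding site gRNAs, called ERBS, 2 Adjacent and 1 IL1RN) and in 2 dCas9-p300(core) ERBS libraries. No gRNA was directed at any of the 10 genes. The 2 libraries of a group carry replicate numbers, nothing in the labels says whether they came from separate cultures, and p-values therefore measure the spread between these libraries only.

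Estrogens act through ER, a ligand-activated transcription factor that binds estrogen response elements (a palindrome of GGTCA and TGACC spaced by 3 bases) or reaches DNA through other factors, and recruits coactivators, among them p300. p300 acetylates histone H3 at lysine 27 (H3K27ac), a mark of active promoters and enhancers, and RNA polymerase II (RNAPII) marks the promoters and bodies of transcribed genes. The 10 genes serve different roles. GREB1 and NRIP1 (RIP140) are ER cofactors, CCND1 is cyclin D1, which drives the G1 phase of the cell cycle, and XBP1 is a transcription factor of the unfolded protein response. TFF1 is a secreted trefoil peptide, CXCL12 a secreted chemokine and IGFBP4 a secreted binding protein for insulin-like growth factors. ALPP and ALPI are the placental and intestinal alkaline phosphatases, and PDZK1 is a scaffold protein with PDZ domains.

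On hg19, GREB1 (chr2:11622467-11782914), IGFBP4 (chr17:38599702-38613977), CCND1 (chr11:69455924-69469242) and PDZK1 (chr1:145726918-145764207) lie on the plus strand, as do the neighbours ALPP (chr2:233243434-233247599) and ALPI (chr2:233320835-233325463). TFF1 (chr21:43782391-43786644), NRIP1 (chr21:16333556-16438257), CXCL12 (chr10:44865613-44881941) and XBP1 (chr22:29190543-29196585) lie on the minus strand.

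The promoter sequences differed in kind. In the 150 bases before the canonical start, or for PDZK1 before the start chr1:145727666 at -32 bp from the canonical one, NRIP1 and CXCL12 hold 3 GC boxes each (GGGCGG on either strand, in capitals), CCND1 holds 2 and PDZK1 none. NRIP1 and CCND1 are shown as promoters with peaks, and CXCL12 and PDZK1 as promoters without a peak of any antibody. All are read 5′ to 3′ on the strand of the gene from GRCh37, the assembly that hg19 names, and none overlaps an exon.
NRIP1, chr21:16437322-16437471, minus strand: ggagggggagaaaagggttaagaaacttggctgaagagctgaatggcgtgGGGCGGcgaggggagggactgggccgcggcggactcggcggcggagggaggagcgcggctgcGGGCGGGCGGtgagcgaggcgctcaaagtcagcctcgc
CCND1, chr11:69455774-69455923, plus strand: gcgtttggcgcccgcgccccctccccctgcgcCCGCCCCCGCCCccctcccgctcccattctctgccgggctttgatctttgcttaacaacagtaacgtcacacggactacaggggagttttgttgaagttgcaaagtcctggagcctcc
CXCL12, chr10:44880546-44880695, minus strand: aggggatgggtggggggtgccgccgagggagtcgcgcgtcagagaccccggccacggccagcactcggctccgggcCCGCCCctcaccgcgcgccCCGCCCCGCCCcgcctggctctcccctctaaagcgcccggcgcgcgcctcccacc
PDZK1, chr1:145727516-145727665, plus strand: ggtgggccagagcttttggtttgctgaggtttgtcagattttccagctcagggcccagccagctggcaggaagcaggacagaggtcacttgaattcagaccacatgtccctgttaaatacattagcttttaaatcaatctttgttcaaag

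Estrogen response elements that matched the palindrome exactly or with 1 mismatch were searched within 2 kb of any start of the genes and under their summits. The elements are in capitals between flanks of 8 bases, on the strand of the gene, and are shown to set each beside its peaks. The last 2 are given since peaks were called over them or beside them away from the canonical start, and a further element of NRIP1 (T3A) near an internal start had no peak. A substitution gives the base of the palindrome, its position from 1 at the 5′ end of the element, and the base in the genome.
GREB1, exact, chr2:11672652-11672680, plus strand: ggcaactgGGTCATTCTGACCtagaagca
NRIP1, exact, chr21:16437954-16437982, minus strand: gggcgtggGGTCAAAGTGACCcagagttc
TFF1, A11G, chr21:43787029-43787057, minus strand: ccctgcaaGGTCACGGTGGCCaccccgtg
ALPI, A5T, chr2:233320439-233320467, plus strand: ccagcccaGGTCTGGCTGACCcagagcac
IGFBP4, A11C, chr17:38599976-38600004, plus strand: cctcgggcGGTCATGCTGCCCctctgcct
CCND1, C13A, chr11:69462040-69462068, plus strand: gctctgaaGGTCACTGTGACAgtcatggt
GREB1 gene body, T3G, chr2:11638847-11638875, plus strand: ctgatctgGGGCACACTGACCcacgggtg

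The lists hold a peak's fold enrichment over background and the -log10 of its p-value, which was above 10 for every peak. A gene counted as having a promoter peak where a peak shared at least 1 bp with the 2 kb on either side of any of its annotated starts, and its value was the highest fold enrichment there. The lists held 5322 to 32052 peaks for H3K27ac with dCas9-VP16(10x) and 1805 to 24276 with dCas9-p300(core), 16040 to 35589 and 18809 to 40755 for RNAPII, and 4783 to 30736 for HA with dCas9-VP16(10x). Both HA dCas9-p300(core) lists were small, with 141 and 146 peaks. The number of reads behind a list was not analysed here, so a missing peak says only that none passed the threshold in that library. A mark in fewer cells and a weaker mark in each cell cannot be told apart.

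Several libraries stand apart or carry labels that limit the comparisons. All 10 RNAPII libraries of dCas9-p300(core) carry the same number in their peak names, called a run identifier here, although no label says what it stands for. Of the dCas9-VP16(10x) libraries, 7 carry another and 3 carry none, so run identifier and construct cannot be told apart for RNAPII. For H3K27ac, 5 dCas9-VP16(10x) and 6 dCas9-p300(core) libraries carry the same identifier and the others carry none. The peak names of the H3K27ac dCas9-VP16(10x) Pool 1 replicate 2 library have the letter used elsewhere for dCas9-p300(core), and the name of the dCas9-VP16(10x) Adjacent replicate 1 library also holds IL1RN. HA libraries were taken as labelled, although the title of the IL1RN library names no construct and it could not be settled whether the construct labels of the ERBS libraries are right. Of the peaks in the smaller list of the HA dCas9-VP16(10x) ERBS pair, 98.9% overlapped the larger list, while 18.6% of the larger overlapped the smaller, and whether the pair share reads was not tested.

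The cells carried the marks of an epithelial line. All 5 epithelial markers (EPCAM, CDH1, KRT8, KRT18, KRT19) had an RNAPII promoter peak in all 20 libraries, as did 3 of 4 markers of Mullerian duct epithelium, and the other had no peak of any antibody. Of 9 markers of leukocytes, endothelium, fibroblasts, muscle, liver and neurons, 2 had H3K27ac and RNAPII promoter peaks in at least 1 library and 7 had neither, and the marker with the most libraries, COL1A1 of fibroblasts, had H3K27ac in 12 and RNAPII in 14. ESR1, which encodes ER, had both in all 20 libraries.

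The 10 genes differed in how often their promoters had peaks. CCND1 and XBP1 had an RNAPII promoter peak in all 20 libraries, NRIP1 in 18 and GREB1 in 14, and these same 4 genes were the ones with an H3K27ac promoter peak (XBP1 in 19 libraries, CCND1 in 14, NRIP1 in 13 and GREB1 in 6). IGFBP4 had an RNAPII promoter peak in 5 libraries and PDZK1 in 1, without H3K27ac. TFF1, CXCL12, ALPP and ALPI had neither mark in any of 20 libraries.

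At least 1 library showed a promoter peak at 4 of 10 members for H3K27ac and at 6 of 10 for RNAPII, beside 70.45% and 73.55% of all 20090 genes. An RNAPII peak in every library was found at 2 of 10 members and at 44.05% of all genes. An H3K27ac peak in every library was found at none of the 10 and at 2.41% of all genes, but 7 of the 20 H3K27ac lists held under 10000 peaks. In the other 13 lists (9 of dCas9-VP16(10x) and 4 of dCas9-p300(core)), CCND1, XBP1 and NRIP1 had a peak in all 13, GREB1 in 4 of 9 and 2 of 4, and the other 6 members in none. Beside these 3 of 10 members, 5544 of all 20090 genes had a peak in all 13 lists. The 7 lists under 10000 peaks held 0 to 2 members and the other 13 held 3 or 4, and the longest list, of 32052 peaks, held 3, as drawn in the plot of members by list size.

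**Figure D1:**
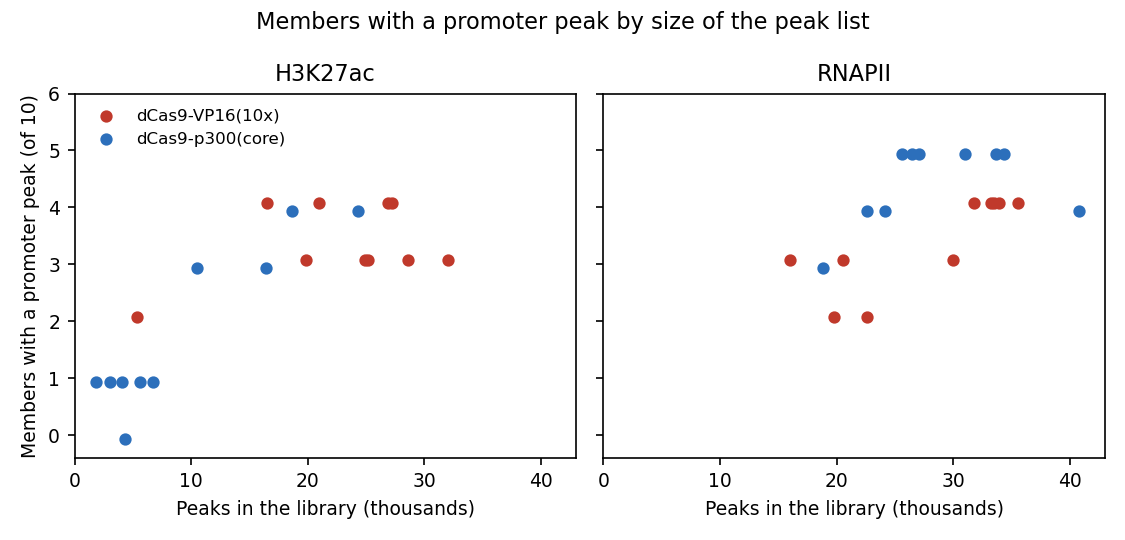
The number of the 10 members with a promoter peak (vertical axis) against the peaks in a library (horizontal axis), with 1 point for each of 20 H3K27ac libraries (left) and 20 RNAPII libraries (right), in red for dCas9-VP16(10x) and blue for dCas9-p300(core), set slightly apart vertically. H3K27ac lists under 10000 peaks show 0 to 2 members and the other lists 3 or 4, while RNAPII lists show 2 to 5.

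A list of 24 other estrogen-responsive genes was described in the same way. A promoter peak in at least 1 library was found at 19 of 24 for H3K27ac and 21 of 24 for RNAPII, and 7 had RNAPII in all 20 libraries (RARA, SIAH2, STC2, FKBP4, NHERF1, PKIB and TGFA). The median gene of that list had RNAPII in 14.5 libraries, the median member in 3 and the median of all genes in 18. AREG, OLFM1 and TFF3, a trefoil peptide gene beside TFF1, were the genes of that list without either mark.

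GREB1 had weak H3K27ac at its promoter in 4 of 10 dCas9-VP16(10x) and 2 of 10 dCas9-p300(core) libraries. The values were 6.351 and 13.5 in dCas9-VP16(10x) Adjacent replicates 1 and 2, 12.69 in Pool 1 replicate 1 and 15.96 in IL1RN replicate 1. With dCas9-p300(core) they were 11.56 in Adjacent replicate 1 and 17.55 in IL1RN replicate 1. All 6 values were low for their library, at the 2.925 to 24.55 percentile of genes with a promoter peak.

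NRIP1 had an H3K27ac promoter peak in 9 of 10 dCas9-VP16(10x) and 4 of 10 dCas9-p300(core) libraries. Its values spread most widely with dCas9-VP16(10x), from 7.909 through a median of 12.34 to 119.5. With dCas9-p300(core) they were 30.84 in Pool 2 replicate 1, 57.69 and 78.36 in Adjacent replicates 2 and 1, and 93.64 in IL1RN replicate 1. The 5 dCas9-VP16(10x) libraries without a run identifier were all low, at 7.909 to 15.01. Of the 5 with the identifier, 4 had a peak, at 12.34 to 119.5 with a median of 56.82, beside 68.03 in the 4 of 6 dCas9-p300(core) libraries with a peak and the same identifier.

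CCND1 had an H3K27ac promoter peak in 10 of 10 dCas9-VP16(10x) libraries and in 4 of 10 dCas9-p300(core) libraries. Fold enrichment was 9.77, 35.92 and 81.45 (lowest, median, highest) with dCas9-VP16(10x). In the dCas9-p300(core) libraries it was 17.41 in Pool 2 replicate 1, 41.93 and 52.94 in Adjacent replicates 2 and 1, and 55.13 in IL1RN replicate 1. All 4 of these values lie within the dCas9-VP16(10x) range, and the 6 libraries without a peak within 2 kb of a start are the lists under 10000 peaks of that construct. Farther from the starts, 2 of these 6 had a peak in the H3K27ac interval of CCND1, chr11:69450634-69461901 (9.989 in IL1RN replicate 2 and 6.978 in Pool 1 replicate 2).

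XBP1 had the most regular H3K27ac of the members. Its fold enrichment in the 10 dCas9-VP16(10x) libraries had a lowest value of 15.99, a median of 25.79 and a highest of 113.1, and in the 9 of 10 dCas9-p300(core) libraries with a peak 6.053, 12.96 and 85.62. The ranges overlapped over most of their length, and the dCas9-p300(core) Pool 1 replicate 2 library had no peak. Values within a construct split by run identifier, since dCas9-p300(core) libraries with the identifier had a median of 61.55 (n = 6) and those without it a median of 7.838 (3 of 4 with a peak), while for dCas9-VP16(10x) the medians were 51.93 and 24.17 (n = 5 each).

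**Figure D2:**
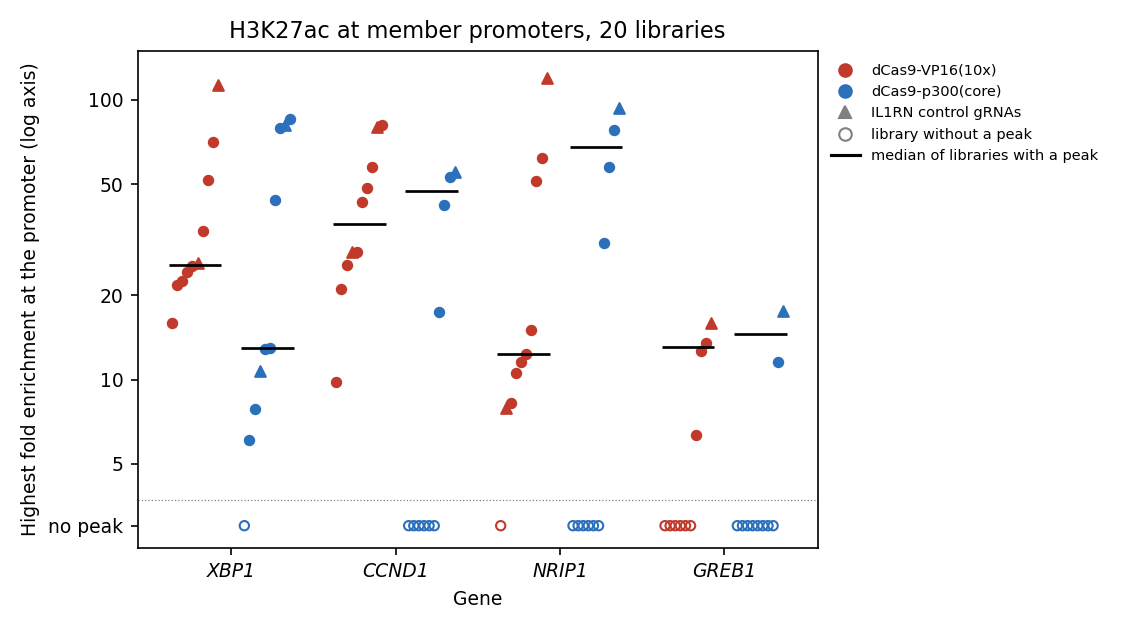
Highest H3K27ac fold enrichment over background at the promoter (log axis) of the 4 members with a peak, with 1 point for each of 10 dCas9-VP16(10x) libraries (red) and 10 dCas9-p300(core) libraries (blue), triangles for IL1RN control gRNAs, open circles for libraries without a peak and bars for the median of libraries with a peak. XBP1 has a peak in 19 of 20 libraries and GREB1 in 6, and the constructs overlap at each gene.

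Promoter peak presence was compared between constructs by two-sided Fisher's exact tests with Benjamini-Hochberg adjustment over genes with a peak in 5 to 15 libraries. For H3K27ac, 28 of 10072 genes tested passed an adjusted p of 0.05, or 0.278%, all of them more frequent with dCas9-VP16(10x), and 3370 passed without adjustment. No member passed, and XBP1, with a peak in 19 libraries, was not tested. The difference was 60 percentage points at CCND1 (exact p = 0.0108, adjusted p = 0.0715), 50 at NRIP1 (exact p = 0.0573, adjusted p = 0.109) and 20 at GREB1 (exact p = 0.629, adjusted p = 0.748). The dCas9-p300(core) lists were shorter, with a median of 6133.5 peaks against 25025.0. With each list held to its 1805 strongest peaks, CCND1 had a peak in 4 dCas9-VP16(10x) libraries and 0 of dCas9-p300(core), NRIP1 in 0 and 2, XBP1 in 5 and 8, and GREB1 in none. With the run identifier as a block the adjusted p of CCND1 was 0.0328, and 2997 of 10072 genes passed. Leaving out any of 5 libraries gave CCND1 0.0228 to 0.0471 and NRIP1 0.0248 to 0.0471, but a large share of all genes passed as well. It was 5940 of 11076 without dCas9-p300(core) Adjacent replicate 1, 5734 of 11200 without Adjacent replicate 2 and 5825 of 11112 without IL1RN replicate 1. Without dCas9-p300(core) Pool 2 replicate 1 it was 4715 of 11236, and without dCas9-VP16(10x) Pool 3 replicate 1 it was 5697 of 11051.

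The size of H3K27ac enrichment could be compared for CCND1, XBP1 and NRIP1, with limma on log2 values centred on each library's median and with the gRNA pool as a term. Among 7016 genes with a peak in at least 4 libraries of each construct, 0 passed an adjusted p of 0.05 (0%), and 1238 passed without adjustment. Log2 enrichment with dCas9-VP16(10x) relative to dCas9-p300(core) was 0.09 at CCND1 (SE 0.245, adjusted p = 0.862), -0.37 at XBP1 (SE 0.245, adjusted p = 0.401) and -1.48 at NRIP1 (SE 0.482, adjusted p = 0.25). The NRIP1 estimate was -0.76 (SE 0.326, adjusted p = 0.674) with the run identifier as a block. Libraries without a peak were dropped from these fits.

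RNAPII was strongest at CCND1 and XBP1 with either construct. At CCND1 the fold enrichment was 19.09, 27.88 and 31.61 (lowest, median, highest of 10) with dCas9-VP16(10x) and 20.85, 44.88 and 55.89 with dCas9-p300(core). At XBP1 it was 12.19, 18.46 and 26.88, and 10.41, 46.38 and 61.61. The dCas9-p300(core) values were mostly the higher ones, and at XBP1 the ranges overlapped through 1 dCas9-p300(core) library, IL1RN replicate 1, whose value of 10.41 was the lowest of all. This value came from a peak inside the gene, with its summit 1692 bp after the canonical start. In the interval over the canonical start that library had 8.195. At CCND1 that library (20.85) and Pool 1 replicate 2 (28.17) were within the dCas9-VP16(10x) range. Over all genes with a peak in every library, dCas9-p300(core) values were also higher, with a median log2 difference of -0.72 before centring. CCND1 ranked among the strongest promoters in every library, at the 89.87 to 98.11 percentile of genes with a peak, and XBP1 at the 42 to 99.21 percentile.

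Relative to the median of their library, CCND1 and XBP1 did not pass the test between constructs. Of 8849 genes with an RNAPII promoter peak in all 20 libraries, 2020 passed (22.8%), 1238 higher and 782 lower with dCas9-VP16(10x), against 19 and 6929 without centring. The log2 difference was 0.15 at CCND1 (SE 0.084, adjusted p = 0.2, limma) and -0.44 at XBP1 (SE 0.172, adjusted p = 0.0697). Without the dCas9-p300(core) IL1RN replicate 1 library XBP1 was at -0.53 with an adjusted p of 0.0152, and leaving out the dCas9-p300(core) Pool 1 replicate 1 or Pool 2 replicate 1 library gave 0.0482 and 0.0484. Of all genes tested, 3048 of 9488, 1816 of 8850 and 2373 of 8849 passed in these settings, in that order. Without centring, CCND1 was at -0.57 with an adjusted p of 0.0159, and without the 3 libraries that carry no run identifier at 0.24 with 0.0357. In the latter setting 2648 of 8930 genes passed. The values of the constructs did not overlap at 1.18% of the 8849 genes as deposited and at 0.599% relative to the library median, and they overlapped at CCND1 and XBP1 on both scales.

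NRIP1 carried RNAPII in 8 of 10 dCas9-VP16(10x) and 10 of 10 dCas9-p300(core) libraries. Its fold enrichment was 6.665, 10.19 and 19.13 in the former (lowest, median, highest) and 12.53, 28.21 and 45.69 in the latter. Of the 8 dCas9-VP16(10x) values, 5 were below the lowest dCas9-p300(core) value and the highest, in IL1RN replicate 1, was above 2 of them. Among 12414 genes with a peak in at least 4 libraries of each construct, 3051 passed (24.6%), and NRIP1 was lower with dCas9-VP16(10x) by 0.58 in log2 (-0.58, SE 0.17, adjusted p = 0.0192), with 2 libraries dropped for want of a peak. GREB1 was at -0.19 in the same fit (SE 0.168, adjusted p = 0.433).

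GREB1 and IGFBP4 had weaker RNAPII. GREB1 values were 7.958 and 8.156 in dCas9-VP16(10x) IL1RN replicates 2 and 1, 9.017 in Pool 1 replicate 1, and 10.36 and 12.5 in Adjacent replicates 1 and 2. Its 9 dCas9-p300(core) values were 10.16, 20.62 and 25.57 (lowest, median, highest), and the IL1RN replicate 1 library had no peak. IGFBP4 had no peak in any dCas9-VP16(10x) library. In dCas9-p300(core) libraries it gave 6.97 and 10.04 in Adjacent replicates 1 and 2, 9.669 in Pool 1 replicate 1, 9.977 in IL1RN replicate 2 and 13.38 in Pool 3 replicate 2. The IGFBP4 values lay at the 1.574 to 15.65 percentile of their libraries. PDZK1 had 1 value, 4.784 in dCas9-p300(core) Pool 1 replicate 2, from a peak near an internal start.

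**Figure D3:**
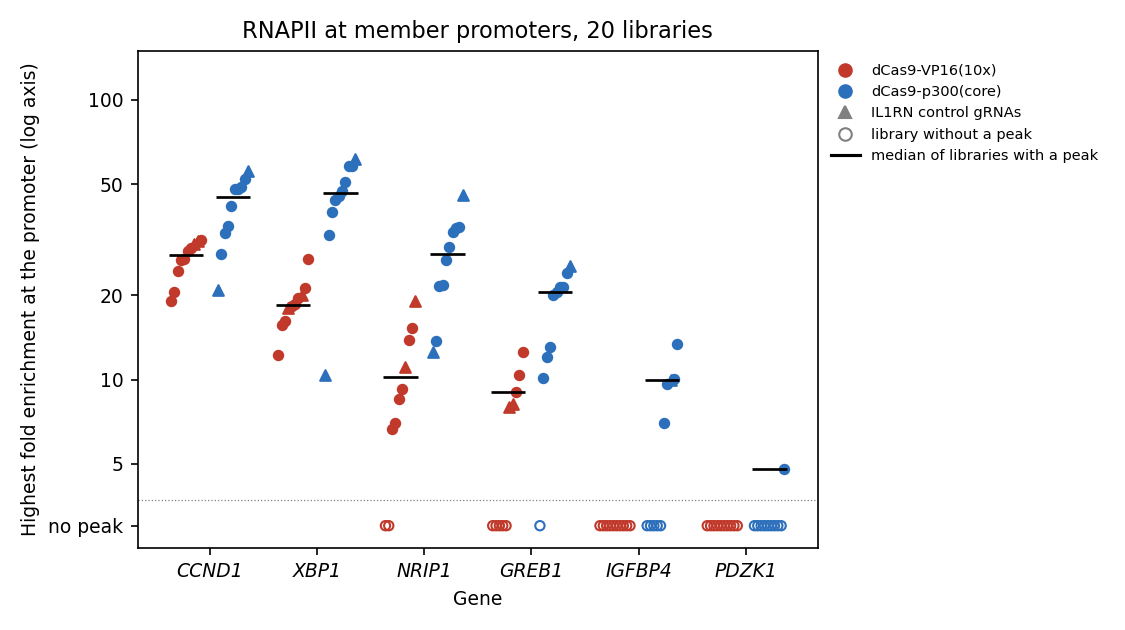
Highest RNAPII fold enrichment over background at the promoter (log axis) of the 6 members with a peak, drawn as for H3K27ac: 10 dCas9-VP16(10x) libraries in red, 10 dCas9-p300(core) libraries in blue, triangles for IL1RN control gRNAs, open circles for no peak and bars for medians of libraries with a peak. CCND1 and XBP1 have a peak in all 20 libraries, and IGFBP4 and PDZK1 only in dCas9-p300(core) libraries.

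In RNAPII peak presence, 767 of 2546 genes tested passed (30.1%), of which 684 were more frequent with dCas9-p300(core) and 83 with dCas9-VP16(10x). Neither member in the test passed. GREB1 was at 5 of 10 against 9 of 10 (exact p = 0.141, adjusted p = 0.227) and IGFBP4 at 0 of 10 against 5 of 10 (exact p = 0.0325, adjusted p = 0.0712). With each list held to its 16040 strongest peaks, GREB1 was at 1 against 9 (adjusted p = 0.0106) and IGFBP4 at 0 against 1. Of all genes tested in that setting, 708 of 2493 passed. Of the 24 other estrogen-responsive genes, only those with a peak in 5 to 15 libraries were in this Fisher's exact test, which 30.1% of all genes tested passed. Among them CA12 (carbonic anhydrase XII; 0 against 7, adjusted p = 0.0226), IGF1R (the receptor of insulin-like growth factor 1; 0 against 6, adjusted p = 0.036) and PGR (progesterone receptor; 0 against 6, adjusted p = 0.036) passed. In the limma enrichment test, which 22.8% of 8849 genes passed, PKIB, an inhibitor of protein kinase A, was lower with dCas9-VP16(10x) (-0.35, SE 0.119, adjusted p = 0.04).

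IL1RN was tested against the mean of the other gRNA pools, and for RNAPII no difference passed at CCND1 or XBP1. The other pools were not tested against each other. RNAPII fold enrichment at CCND1 was 20.85 to 55.89 in the 4 IL1RN control libraries and 19.09 to 52.22 in the 16 others, and at XBP1 10.41 to 61.61 and 12.19 to 58.03. The control values cover the others almost completely. In the contrast of IL1RN with the other pools, 0 of 8849 genes passed in limma (0%), and 176 passed without adjustment. The log2 differences were 0.06 at CCND1 (SE 0.105, adjusted p = 0.999) and -0.35 at XBP1 (SE 0.215, adjusted p = 0.999). For the interaction of construct and control gRNAs, 0 of 8849 genes passed (0%) and 362 did so without adjustment. CCND1 was at 0.15 (SE 0.212, adjusted p = 0.972) and XBP1 at 0.55 (SE 0.424, adjusted p = 0.945). H3K27ac at NRIP1 was 7.909 to 119.5 in the 3 of 4 control libraries with a peak and 8.266 to 78.36 in the 10 of 16 others.

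HA was measured to locate the dCas9 fusion, and no library without a fusion was analysed here. CCND1 had an HA promoter peak in all 5 dCas9-VP16(10x) libraries, whichever gRNAs were used, at 19.2 with IL1RN, 7.812 and 22.21 with Adjacent and 6.991 and 24.11 with ERBS gRNAs. NRIP1 (22.01 and 25.96), XBP1 (10.07 and 21.32) and IGFBP4 (14.12 and 16.79) had a peak in Adjacent replicate 2 and ERBS replicate 2, and GREB1 (9.087) in Adjacent replicate 2 only. The 5 members without H3K27ac and with at most 1 RNAPII promoter peak (TFF1, CXCL12, ALPP, ALPI and PDZK1) had no HA promoter peak in any library. HA peaks at promoters were frequent in these lists, since 70.91% of all 20090 genes had one in at least 1 library. With the ERBS pair counted as 1 library, a peak being needed in both lists, the 5 members were unchanged in number, as the Adjacent replicate 2 library holds all of them. The dCas9-p300(core) lists had no HA peak at any member, at 9 and 97 genes with a promoter peak in all.

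GREB1 has 10 annotated starts, and its promoter peaks lay at 1 of them. All 6 H3K27ac, 14 RNAPII and 1 HA libraries had their peak at the outermost start, chr2:11622467, which lies at -51704 bp from the canonical start, chr2:11674171. The canonical start and the other 8 starts had no peak of any antibody within 2 kb. The exact estrogen response element of GREB1 shown above, centred at -1505 bp from the canonical start, lay under no peak. The RNAPII summit lies 874 bp after the outermost start and outside exons.

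At XBP1, CCND1, NRIP1 and IGFBP4 peaks lay at the canonical start or one close to it. The only promoter peak of PDZK1 lay near the internal start chr1:145743263, which is 15565 bp from its canonical start. At XBP1 (canonical start chr22:29196557) all 19 H3K27ac and 20 RNAPII libraries had a peak near the canonical start, and 4 and 13 also near the internal start chr22:29193033. At CCND1 (canonical start chr11:69455924) 14 and 20 did, and 4 and 17 near the innermost start chr11:69462725. NRIP1 had the same 13 H3K27ac and 18 RNAPII libraries at each of its 5 starts between chr21:16437255 and chr21:16438257 and none at the internal start chr21:16374689. IGFBP4 has a single annotated start (chr17:38599702), and its RNAPII summit lay 432 bp downstream, in an exon. At CCND1 the H3K27ac peaks of 16 libraries (10 of dCas9-VP16(10x) and 6 of dCas9-p300(core)) joined into 1 interval, chr11:69450634-69461901, that spans the promoter and runs into the gene, with its summit 1857 bp before the start.

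CCND1 had a second centre of marks upstream of its start. RNAPII intervals, each merged over libraries, had peaks in 18, 15 and 13 libraries. The strongest peak of each had its summit 1873, 2756 and 4434 bp before the start, in that order. Summits were not compared library by library. The HA site shared by all 5 dCas9-VP16(10x) libraries (chr11:69452788-69454284) had the summit of its strongest peak 1962 bp before the start. The summits of the strongest H3K27ac peak and of the nearest of these RNAPII peaks were close to it. HA enrichment at that site was 19.2 with IL1RN, 7.812 and 19.38 with Adjacent and 6.991 and 19.2 with ERBS gRNAs. The 150 bases around the H3K27ac summit are shown because peaks of the 3 antibodies lie there, and they hold no estrogen response element, no AP-1 site (searched as TGANTCA with any base at N, which reads alike on both strands) and no GC box.
CCND1 upstream summit, chr11:69453992-69454141, plus strand: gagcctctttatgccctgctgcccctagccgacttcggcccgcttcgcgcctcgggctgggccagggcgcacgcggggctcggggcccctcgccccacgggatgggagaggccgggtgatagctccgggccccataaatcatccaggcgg

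RNAPII intervals, merged over libraries, covered most of CCND1. The interval over its start, chr11:69455085-69466303, is 11219 bp wide and had a peak in all 20 libraries. An interval at the 3′ end of CCND1, chr11:69467640-69471813, had a peak in all 20 libraries, with fold enrichment of 11.04, 21.673 and 49.64 (lowest, median, highest). It overlaps LTO1, whose start is 3791 bp from the summit, so the signal cannot be assigned to either gene. A weaker RNAPII site in the last part of the gene body, chr11:69466607-69467260, was found in 7 dCas9-VP16(10x) libraries (4.988 to 11.647) and in no dCas9-p300(core) library. A like site near the 3′ end of XBP1, chr22:29191158-29191742, had RNAPII in 8 dCas9-VP16(10x) libraries (5.295 to 9.707) and in no dCas9-p300(core) library. Other sites in XBP1 had RNAPII with dCas9-p300(core) only, chr22:29194135-29194400 in 2 libraries and chr22:29194528-29195032 in 3. Run identifier and construct cannot be told apart for RNAPII, and the share of sites called with only 1 construct over all genes was not determined. The element with C13A at CCND1, 6130 bp after the start, lay under RNAPII peaks in 10 dCas9-VP16(10x) and 6 dCas9-p300(core) libraries and under H3K27ac peaks in 1 and 2.

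Away from the starts, in the gene body and 20 kb upstream, the members had 15 distal loci, 6 at CCND1, 3 each at GREB1 and ALPI, 2 at PDZK1 and 1 at XBP1. TFF1, CXCL12 and ALPP had no peak of any antibody in their whole region, and NRIP1 and IGFBP4 had promoter peaks only. The locus with the most libraries upstream of GREB1, chr2:11605444-11606890, had H3K27ac in 13, RNAPII in 19 and HA in 2 libraries, but its summit lies 160 bp from the start of the neighbouring gene E2F6.

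**Figure D4:**
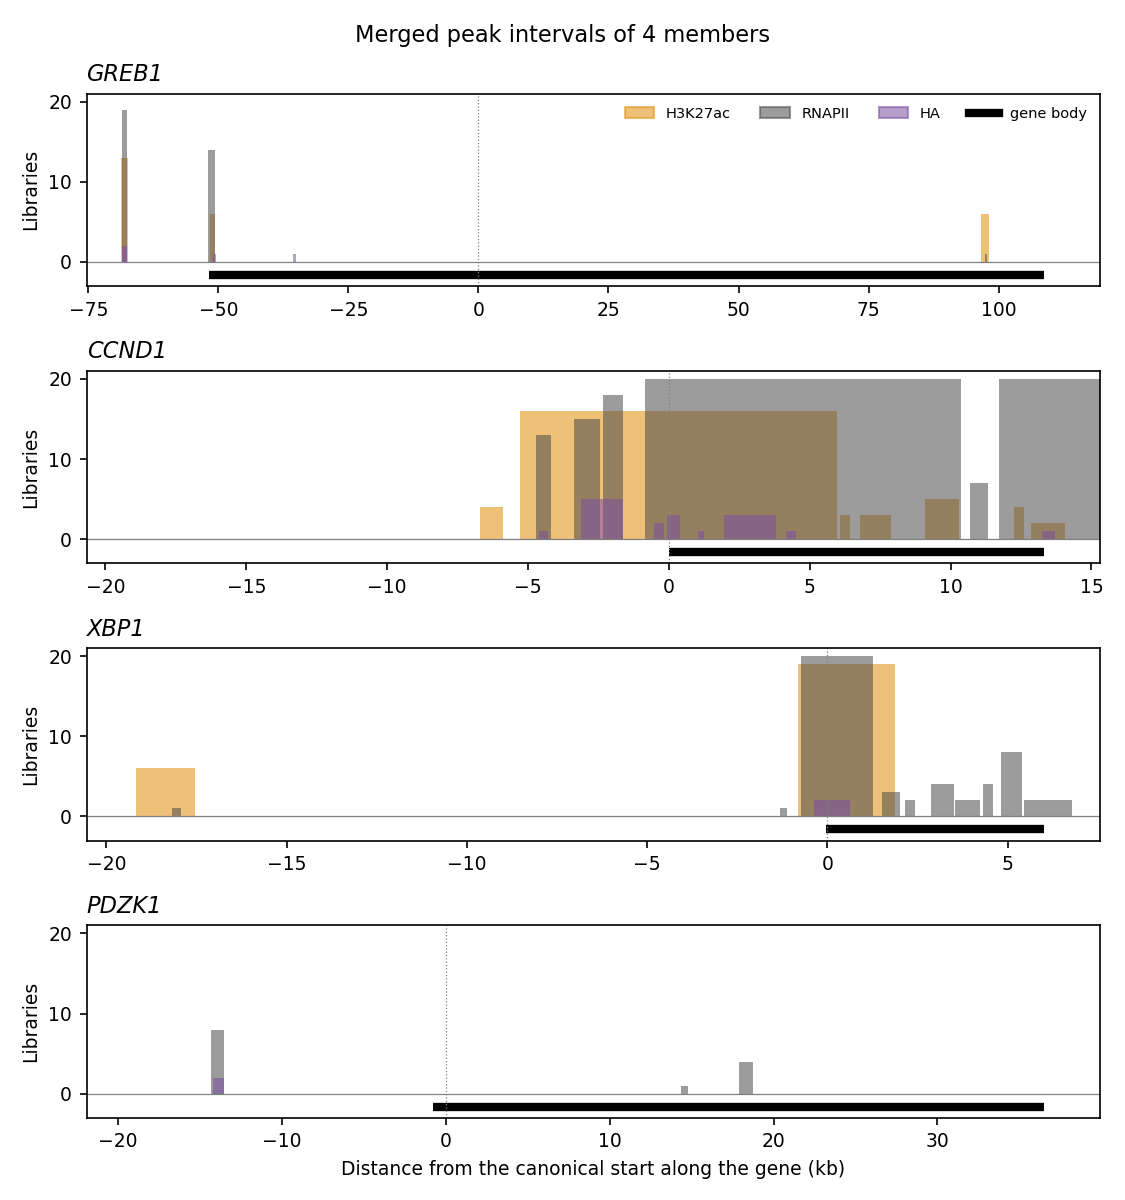
Merged peak intervals of GREB1, CCND1, XBP1 and PDZK1 along each gene, with the distance from the canonical start in kb (negative upstream) on the horizontal axis and the number of libraries with a peak on the vertical axis, for H3K27ac and RNAPII (of 20) and HA (of 7), and a black bar for the gene body. GREB1 marks sit at the outermost start, at E2F6 and in the gene body, CCND1 has intervals over its start, most of its gene body and its 3′ end, and PDZK1 shows RNAPII and HA only.

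Of the distal H3K27ac sites in at least 2 libraries, those of GREB1 in the gene body, of XBP1 upstream and of CCND1 at chr11:69449234-69450039 were called with dCas9-VP16(10x) only. The CCND1 site had H3K27ac in 4 libraries, at 6.594 in Pool 1 replicate 2, 7.163 in Pool 2 replicate 2, and 7.91 and 8.751 in Adjacent replicates 2 and 1. At GREB1, chr2:11770710-11772278 in the gene body had H3K27ac in 6 dCas9-VP16(10x) libraries, at 5.595 and 5.602 in Pool 3 replicate 2 and IL1RN replicate 2, 10.285 and 12.927 in Adjacent replicates 2 and 1, 10.763 in Pool 1 replicate 2 and 12.027 in Pool 2 replicate 2. At XBP1, chr22:29214094-29215739 has its summit at -18512 bp from the canonical start, inside the lncRNA ENSG00000226471, and had H3K27ac in 6 dCas9-VP16(10x) libraries at 6.389 to 18.059. Of the 6 libraries at each of the GREB1 and XBP1 sites, 5 carry no run identifier and hold 24890 to 32052 peaks. So do 3 of the 4 at the CCND1 site, so construct, run identifier and list size cannot be told apart at these sites. The share of distal sites called with only 1 construct over all genes was not determined. The other distal sites in at least 2 libraries had both constructs. At CCND1, chr11:69465010-69466225 had 2 dCas9-VP16(10x) and 3 dCas9-p300(core) libraries, chr11:69468159-69468519 had 1 and 3, and chr11:69468786-69469972 had 1 and 1. The locus at the E2F6 start had 9 and 4. The summits of GREB1 and XBP1 are shown since they are the members' distal H3K27ac sites in the most libraries apart from the E2F6 start, and neither holds an element, an AP-1 site or a GC box in 150 bases.
GREB1 gene body, chr2:11771685-11771834, plus strand: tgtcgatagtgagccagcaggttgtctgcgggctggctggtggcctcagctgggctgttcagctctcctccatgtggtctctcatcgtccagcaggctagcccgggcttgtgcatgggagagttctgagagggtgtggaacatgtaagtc
XBP1 upstream, chr22:29214994-29215143, minus strand: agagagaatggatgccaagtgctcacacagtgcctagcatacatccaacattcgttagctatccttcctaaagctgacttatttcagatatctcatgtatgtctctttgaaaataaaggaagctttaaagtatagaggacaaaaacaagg

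At PDZK1, RNAPII was called in dCas9-p300(core) libraries only, all of them with 1 run identifier. Its upstream site, chr1:145713386-145714129, had RNAPII in 8 of 10 dCas9-p300(core) libraries at 4.89 to 12.355 with a median of 9.633, and in none of dCas9-VP16(10x). The site lies in CD160, 1839 bp from its start, and had HA in 2 dCas9-VP16(10x) libraries (8.91 and 10.837). An intronic site, chr1:145745597-145746457, had RNAPII in 4 dCas9-p300(core) libraries at 8.238, 12.818, 14.321 and 15.804. It held the strongest RNAPII peak of the gene. The share of sites called with only 1 construct over all genes was not determined. Of all 20090 genes, 3863 had an RNAPII promoter peak in more dCas9-p300(core) libraries and 1504 in more dCas9-VP16(10x) libraries. PDZK1 has near-identical copies, and since only uniquely aligned reads were kept, its values are uncertain to that extent.

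The alkaline phosphatase genes are close paralogs, so reads in stretches they share would not have been aligned uniquely, and their lack of peaks is uncertain to that extent. ALPP had no peak in its region. ALPI had H3K27ac in 1 library, 10.142 in dCas9-p300(core) Adjacent replicate 1, at chr2:233303935-233304187, with its summit at -16827 bp from its canonical start. It also had HA at chr2:233305248-233305707 and chr2:233309208-233309598 in the same 2 dCas9-VP16(10x) libraries (8.142 and 14.537, and 8.537 and 7.63, in Adjacent replicate 2 and ERBS replicate 2). These sites are nearest to the start of the pseudogene DIS3L2P1 rather than to that of ALPI, and RNAPII had no peak in the ALPI region.

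Among the starts measured, those with and without a peak differed in CpG content, apart from CXCL12, and the choice of genes did not use this. Canonical starts were measured, and for GREB1 also the outermost start, where its peaks lie. The internal start of PDZK1 with an RNAPII peak in 1 library, chr1:145743263, was not measured. Over the 500 bases on each side of the start, the ratio of observed to expected CpG was 0.952 at NRIP1, 0.898 at XBP1, 0.786 at IGFBP4, 0.73 at CCND1 and 0.752 at the outermost start of GREB1. It was 0.371 at TFF1, 0.309 at the canonical start of GREB1, 0.22 at ALPI, 0.217 at ALPP and 0.2 at PDZK1. Of the starts measured, none below 0.6 had a peak within 2 kb, and those with a peak were all above it. CXCL12 was above it too, with a ratio of 0.872, 3 GC boxes and no peak of any antibody.

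**Figure D5:**
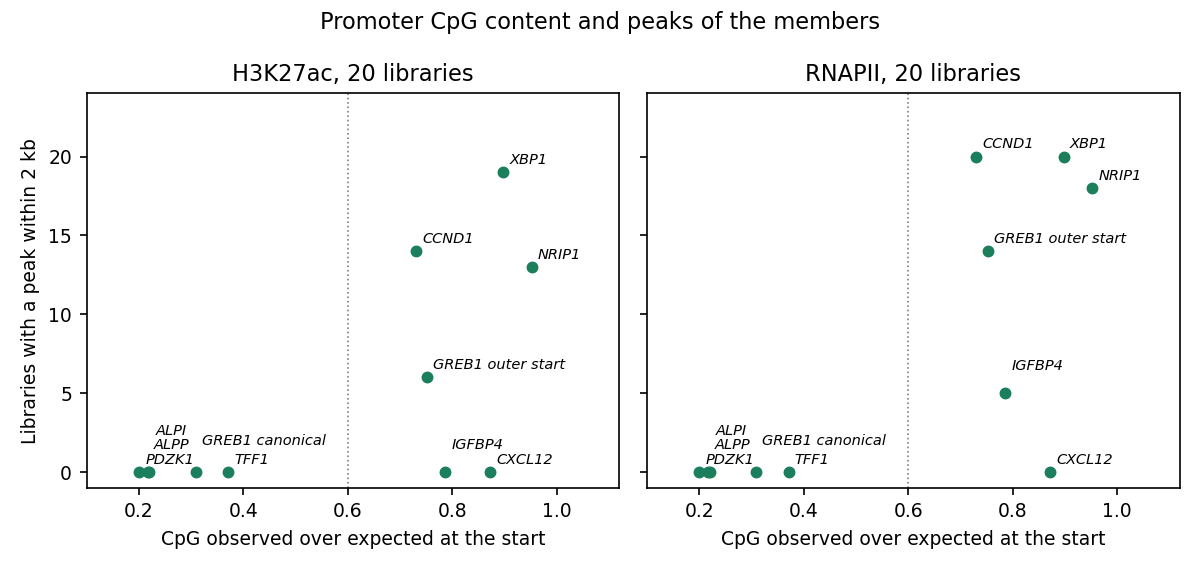
Libraries with a peak within 2 kb (vertical axis, of 20) against the observed over expected CpG ratio in the 500 bases on each side of the start (horizontal axis), for H3K27ac (left) and RNAPII (right), with 1 point for the canonical start of each member and 1 for the outermost start of GREB1, and a dotted line at 0.6. Points below 0.6 are all at 0 libraries, and CXCL12, at 0.872, is at 0 as well.

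A difference by CpG content is also seen over all genes, so it is not particular to the members. For all genes, CpG was measured at the canonical start, but peaks were counted at any start of the gene. Counted in that way, GREB1 (0.309) had RNAPII in 14 libraries and PDZK1 (0.2) in 1, so the members do not split cleanly. Of 13254 promoters with a ratio of at least 0.6, 66.41% had an H3K27ac peak and 84.02% an RNAPII peak in at least 10 libraries, and of 6813 promoters below it 13.44% and 23.09% did. GC boxes were found in the 250 bases before to 50 bases after the start in 7 members and in 61.02% of 20067 promoters. No member had an estrogen response element or an AP-1 site there, beside 0.57% of promoters with an element of at most 1 mismatch and 5.44% with an AP-1 site.

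Estrogen response elements were found at members with and without peaks. Within 2 kb of the canonical start, GREB1 and NRIP1 held an exact element, as did 0.41% of all promoters, and 5 members (GREB1, NRIP1, TFF1, ALPI and IGFBP4) held one with at most 1 mismatch, as did 10.38%. No peak lay over the elements of GREB1, TFF1 and ALPI in any library. The NRIP1 element, at -647 bp from its canonical start, lay under H3K27ac peaks in 2 dCas9-VP16(10x) libraries and under no RNAPII or HA peak, although 13 H3K27ac and 18 RNAPII libraries had a peak within 2 kb. The IGFBP4 element, 288 bp after its start, lay under an RNAPII peak in 1 dCas9-p300(core) library and under HA peaks in 2 dCas9-VP16(10x) libraries.

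Of the distal summits, 1 held an element. It is the HA site in the GREB1 gene body found in dCas9-VP16(10x) ERBS replicate 2 (chr2:11638739-11638974, 10.032), which has an element with T3G and an AP-1 site. In the list of H3K27ac peaks of dCas9-VP16(10x) Pool 2 replicate 2, 0.9% of 13776 distal summits held an element with at most 1 mismatch in 300 bases, and 10.92% an AP-1 site. The list of RNAPII peaks of dCas9-p300(core) Pool 2 replicate 1 gave 1.4% and 8.4% of 15973 distal summits. A match of letters describes the sequence only, and the lack of one in these windows says nothing of ER binding.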

How the data were processed

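H3K27ac, RNAPII and HA ChIP-seq libraries of hormone-depleted Ishikawa cells were grouped by construct and gRNA pool from their labels. The authors aligned single-end reads to hg19 with bowtie, keeping unique alignments, removed duplicates with samtools and deposited 1 list of peaks for each library. The submitters' processing notes name Bowtie 1.1.2 and MACS2 2.1.0.20140616. The deposited values used were the fold enrichment of each peak (a ratio over background) and the -log10 of its p-value. Peaks were called for each library on its own. The deposited table of targeted regions holds no region of the members and was not used.

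Starts and exons were read from GENCODE release 44 on GRCh37, whose chromosome lengths are those of hg19. For each of 20090 genes on chromosomes 1 to 22 and X, the highest fold enrichment among peaks sharing at least 1 bp with the 2 kb on each side of any start was taken. Peak presence was compared by Fisher's exact test over genes with a peak in 5 to 15 libraries (scipy 1.17.1). Log2 enrichment, centred on the library median, was fitted with limma 3.58.1 in R 4.3.3 over genes with a peak in all libraries, or in at least 4 of each construct, with construct and gRNA pool as terms. Adjustment of p-values was by Benjamini and Hochberg, over all genes tested. Both tests were tested on simulated data. Distal loci are peaks outside the promoter windows in the gene body and 20 kb upstream, merged over libraries. The summit given for a merged interval is that of its peak with the highest fold enrichment.

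The members and lists were chosen with earlier results of these data known, and the sequences and sites singled out after their values were seen. All 10 members are named, and of the 24 other genes those called and PGR, plus those with RNAPII in every library or neither mark. The alternatives were another window, summits, a stricter threshold, equal numbers of peaks, no filter, no centring, quantile normalization, -log10 p, replicate and run blocks, and leaving out each library. PECAM1 of the marker list was not analysed here. Some marker genes and sequences are not reported here.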

Additional observations from a re-analysis of the deposited data

Results flagged for a closer look

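The RNAPII fold enrichment of XBP1 in the dCas9-p300(core) IL1RN replicate 1 library, 10.41, stood apart from the other 9 libraries of that construct, which ran from 32.92 to 61.61, in a test of the gap of an extreme value to its neighbour. It came from a peak with its summit 1692 bp after the canonical start, and in the interval over that start the library had 8.195. 8 groups were tested in this way, and chance marks about 1 in 20. That library had the fewest RNAPII peaks of its construct (18809) and no RNAPII promoter peak at GREB1, and its part in the result was not tested.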

How the results depend on the processing

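With H3K27ac peak presence, 28 of 10072 genes passed, and 0 did with equal peak numbers and 4 with no filter on the number of libraries. With a replicate block 390 passed, and 2997 with a block of the run identifier. Without the libraries with under 10000 peaks 0 passed, and 28 to 5940 did with each library left out. The libraries that moved it by over 1.5 times were dCas9-p300(core) Adjacent replicate 1 (5940), Adjacent replicate 2 (5734), IL1RN replicate 1 (5825) and Pool 2 replicate 1 (4715), and dCas9-VP16(10x) Pool 3 replicate 1 (5697), IL1RN replicate 1 (791) and Pool 1 replicate 1 (373). Without lists under 10000 peaks, a choice made after seeing the data, GREB1 presence was at -5.56 percentage points in place of 20 and 3 members had H3K27ac in every library in place of 0 (0 to 1 with each library left out). Of all 20090 genes, 5544 had H3K27ac in every library once those lists were left out. H3K27ac enrichment over genes with a peak in every library gave 0 calls (311 with no centring, 1 with quantile normalization, 2 with -log10 p, 0 to 1 with each library left out), and the contrast of IL1RN with the other gRNAs 0 to 1. CCND1 H3K27ac enrichment was at -0.0023 with the run block, added after seeing the data.

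RNAPII presence gave 767 calls, 177 with no filter, 774 with the replicate block and 776 to 1351 with each library left out (1351 without dCas9-p300(core) IL1RN replicate 1, 1185 without Pool 1 replicate 2). RNAPII enrichment gave 2020 calls, 6948 with no centring (19 higher with dCas9-VP16(10x)), 3051 with a peak in at least 4 libraries of each construct, 2152 with the replicate block and 1465 to 3048 with each library left out (3048 without dCas9-p300(core) IL1RN replicate 1), and CCND1 was at -0.57 with no centring. The IL1RN contrast gave 0 to 1 calls and the interaction 0 to 55 with each library left out, the highest without dCas9-p300(core) IL1RN replicate 2. XBP1 RNAPII was at -1.16 with no centring (adjusted p = 9.28e-05, limma). GREB1 RNAPII presence was at -80 points with equal peak numbers. IGFBP4 passed Fisher's exact test without any of 5 dCas9-p300(core) libraries (IL1RN replicate 1, Pool 1 replicate 2, Pool 2 replicates 1 and 2, Pool 3 replicate 1, lowest adjusted p = 0.0252). Of all genes tested, 947 of 3004 passed without Pool 2 replicate 1 and 1351 of 2777 without IL1RN replicate 1, the fewest and the most of these settings. Members with an HA promoter peak numbered 4 to 5 with each library left out. The cause of these changes was not tested.. Correlations of same-numbered libraries between groups ran from -0.49 to 0.913 for H3K27ac (median 0.299) and from -0.388 to 0.713 for RNAPII (median 0.03). Of 45 pairs of groups, 29 and 13 exceeded 0.1. Same-numbered H3K27ac libraries thus tended to deviate together, and the main tests took no account of this. A run block could not be fitted for RNAPII. Reads behind the lists were not analysed here, so depth limits every missing peak.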
